A study of Schizosaccharomyces pombe with 6 samples.

Results

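The intergenic non-coding RNAs of fission yeast that carry no annotation as a possible alternative UTR were followed in cells with a mutant termination factor. They were the features of the deposited count table with an SPNCRNA identifier and a product description, in the authors' deposited comparison, that begins with intergenic and does not mention a possible alternative UTR. Of 429 SPNCRNA features with an intergenic description, 108 were left out by that wording and 1 for its prl name, which left 320 of the 6986 features counted. The description of 319 of them was that of a predicted intergenic RNA. The exception was omt3, which is also the only one with a name of its own.

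Polyadenylated RNA had been sequenced from Schizosaccharomyces pombe in vegetative log-phase growth at 30 °C in YES, a rich medium. The mutant strain, STF19, was h+ with the seb1-G476S allele and rpb1-CTD-WT29::KanMX, and the wild-type strain was h+ with rpb1-CTD-WT29::NatMX. Each strain gave 3 libraries, which the design text calls biological replicates, and the wild-type libraries came from the same sequencing run but had been deposited earlier. The drug marker beside rpb1 differed together with the seb1 allele, so their effects cannot be told apart, and each group is 1 strain. The title gives the purpose as a search for suppressors of interference by non-coding transcription, from which the seb1 allele came.

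The essential protein Seb1 binds RNA and rides on the carboxy-terminal domain of RNA polymerase II and acts in 3'-end processing and termination. Many non-coding RNAs of this yeast start from the nucleosome-poor region ahead of a coding gene and run away from it on the other strand. Others start ahead of a coding gene and run towards or through its promoter, and transcription of that kind can keep the gene off, as it does at the phosphate-responsive genes pho1 and tgp1. Such RNAs are commonly short-lived, because the nuclear exosome and the machinery that ends transcription early act on them.

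Depth was 23705340 to 27910803 counts in the seb1-G476S libraries and 21013941 to 24496579 counts in the wild-type libraries. The mRNA of seb1 was at 357 ± 14.1 CPM in seb1-G476S and 120 ± 12.3 CPM in wild type (SD, n = 3 each). CPM is a count scaled to the normalized library total, and 1 count was worth 0.0371 to 0.0445 CPM. Libraries of 1 strain resembled each other more than those of the other strain: over the tested intergenic RNAs, the correlation of log2 CPM was 0.9677 to 0.9709 within seb1-G476S, 0.9487 to 0.9718 within wild type and 0.8416 to 0.8687 between the groups. The summed mating-type markers were somewhat higher in seb1-G476S, and 26.7% of all tested features were called higher there. Summed markers of h+ cells were at 107 to 116 CPM in seb1-G476S and 72.7 to 79.4 CPM in wild type, with 1 of 3 higher. Summed markers of h- cells were at 130 to 143 CPM in seb1-G476S and 117 to 129 CPM in wild type, with 3 of 6 higher. Meiotic markers were at 6.24 to 7.06 CPM in seb1-G476S and 5.15 to 8.01 CPM in wild type, with 1 of 3 tested higher. No marker of the 3 lists was at 0 in all libraries, so markers of h- cells were counted although both strains are h+. The part of h- or meiotic cells in the results was not tested. In bulk RNA, fewer cells that express a feature and less RNA per cell cannot be told apart.

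The intergenic RNAs were a low-abundance set. Between 295 and 297 of the 320 had a count in a seb1-G476S library, against 286 in each wild-type library. The low-count filter kept 237, and 83 were not tested. Of these 83, 15 had 0 counts in all 6 libraries and 68 had a few, with a mean over both groups of at most 0.457 CPM. The median level of the 237 was 2.20, 2.34 and 2.41 CPM in the seb1-G476S libraries and 2.36, 2.72 and 2.76 CPM in the wild-type libraries. The summed level of all 320 was 1412, 1438 and 1482 CPM in seb1-G476S, against 1206, 1392 and 1418 CPM in wild type. The groups overlapped, since wild-type replicate 3 lay above seb1-G476S replicate 1. Without SPNCRNA.111, the most abundant of them, the sums were 1106, 1120 and 1150 CPM in seb1-G476S and 1054, 1209 and 1207 CPM in wild type, again with overlap.

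Of the 237 tested, 43 rose and 67 fell in seb1-G476S in edgeR's quasi-likelihood test at an adjusted p under 0.05, and 127 were not called. The called share was 46.4%, against 55.0% of all 6046 features tested. By direction, 18.1% of the intergenic RNAs were called higher, against 26.7% of all features, and 28.3% were called lower, against 28.4%. The share that fell was thus near the background of all features, and the share that rose was below it. On the log2 scale the median change was -0.11 over the intergenic RNAs and -0.01 over all features. Without seb1-G476S replicate 2 the number called lower was 43. When libraries were scaled by their totals alone, the median of all features moved to -0.13 and the intergenic RNAs had 31 called higher and 78 lower, so that 28.4% of the calls were rises in place of 39.1%.

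Large changes in these RNAs were mostly falls. At least 2-fold, 17 were called higher (7.17% of those tested, against 5.82% of all features), or 11 with scaling by totals alone. By the same size, 33 were called lower (13.9% of those tested, against 3.27% of all features). The called rises had a median log2 fold change of 0.82 and reached from 0.41 to 3.02, and the called falls had a median of -0.99 and reached from -0.30 to -2.64. In 52 of the 237 all 3 seb1-G476S libraries lay above all 3 wild-type libraries, and in 78 they lay below them. Among all features 31.3% lay above and 32.6% below. The precision differed, since the median SE of a log2 fold change was 0.213 for intergenic RNAs and 0.107 for all features. Of the 127 not called, 101 had a log2 fold change within 0.5 of 0, 3 were at least 2-fold from equal, and 27 had groups that did not overlap.

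**Figure D1:**
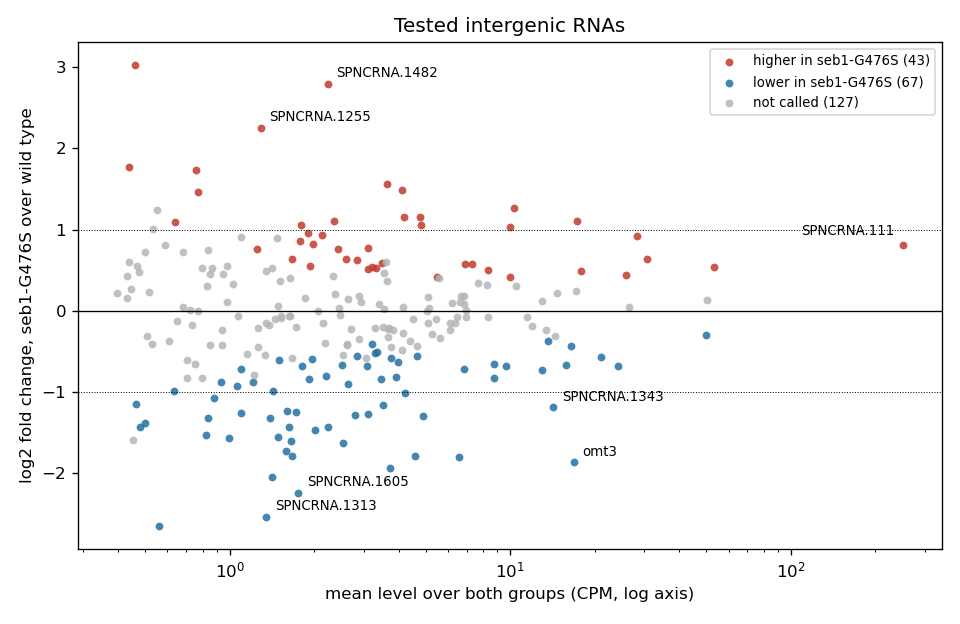
Each point is 1 of the 237 tested intergenic RNAs, with its mean level over both groups on a log axis (CPM) and its log2 fold change, seb1-G476S over wild type; dotted lines mark 2-fold. The 43 called rises lie between 0.41 and 3.02 and the 67 called falls between -0.30 and -2.64, with SPNCRNA.111 alone at the high end of the level axis.

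Calls were made at every level. Of the 60 with the lowest mean level, 0.397 to 1.21 CPM, 5 rose (8.33%) and 14 fell (23.3%). Those at 1.22 to 2.52 CPM had 12 rises (20.3%) and 20 falls (33.9%) of 59. Those at 2.53 to 5.06 CPM had 12 (20.3%) and 19 (32.2%) of 59. Those at 5.08 to 250 CPM had 14 (23.7%) and 14 (23.7%) of 59. The shares of all features were 26.7% higher and 28.4% lower. The authors' deposited table gave an adjusted p for 309 of the 320 and called 94 of them, 45 higher and 49 lower, while it called 46.6% of all features with an adjusted p. Of the 110 intergenic RNAs called here, 86 were called in the same direction in the authors' deposited table and 0 were of opposite sign there. In that table the overall mean lay outside the range of the mutant and wild-type averages, by more than 1% of a bound, for 174 of the 309, so the authors' fit may have held further libraries, and this comparison of calls is limited by that.

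The balance of calls in the other annotated classes is given for comparison. Antisense RNAs without an alternative UTR note had 217 of 518 tested called higher and 54 called lower, and a median of 0.36 on the log2 scale. Features annotated as possible alternative UTR had 91 higher and 14 lower of 182, with a median of 0.55. Protein-coding genes had 1202 higher and 1562 lower of 4953, with a median of -0.05. The differences between classes were not tested.

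Among called rises without overlap that reached 1 CPM in seb1-G476S, the largest was that of SPNCRNA.1482 on chromosome II. It was at 3.58, 4.19 and 3.96 CPM in the seb1-G476S libraries and 0.257, 0.389 and 1.07 CPM in the wild-type libraries. All mutant libraries stood well above the highest wild-type library, and the log2 fold change was 2.79 (SE 0.355, edgeR adjusted p = 0.000227). Without wild-type replicate 3, the highest of its group, it was 3.56. The RNA runs towards frg1 on the same strand, whose predicted product acts in mRNA splicing. That mRNA moved the other way, to 9.87 ± 1.89 CPM in seb1-G476S, against 15.6 ± 3.63 CPM in wild type (log2 fold change -0.66).

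SPNCRNA.1255, on chromosome III, was at 2.03, 2.38 and 2.02 CPM in seb1-G476S and 0.558, 0.505 and 0.267 CPM in wild type. The groups were far apart, with a log2 fold change of 2.25 (SE 0.268, edgeR adjusted p = 0.000163). Downstream on the opposite strand, and so running towards it, lies wtf20, of the wtf family, which includes spore-killer elements. The wtf20 level was 9.09 ± 1.12 CPM in seb1-G476S and 2.62 ± 0.205 CPM in wild type (log2 fold change 1.79), so both features of this locus were higher. The wtf family is repetitive, and reads of near-identical copies could have been split among members by the counting.

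SPNCRNA.1327 lies beside ntp1, the gene of a neutral trehalase, which breaks down the stress sugar trehalose. It was at 5.66, 5.35 and 5.30 CPM in seb1-G476S and 2.06, 1.83 and 1.65 CPM in wild type. Replicates were tight and the groups did not overlap, with a log2 fold change of 1.56 (SE 0.163, edgeR adjusted p = 7.60e-05). The ntp1 mRNA, on the opposite strand upstream, was 1.32-fold higher, at 190 ± 5.97 CPM in seb1-G476S and 144 ± 6.75 CPM in wild type. SPBC660.06, on the opposite strand downstream, rose more, with a log2 fold change of 0.94. It was at 276 ± 2.38 CPM in seb1-G476S and 144 ± 34.2 CPM in wild type. SPNCRNA.1327 overlaps a coding gene on the opposite strand, and reads of that gene in its counts cannot be told apart with certainty.

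SPNCRNA.1164 starts beside gsf2, the gene of a galactose-specific flocculin at the cell surface. It was at 5.53, 6.35 and 6.29 CPM in seb1-G476S and 1.80, 2.25 and 2.45 CPM in wild type, without overlap. Its log2 fold change was 1.48 (SE 0.172, edgeR adjusted p = 0.000139). Its flocculin neighbour had a log2 fold change of 0.35, also called higher, and SPCC1795.12c, the next gene on the RNA's own strand, was not called at 0.06.

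SPNCRNA.1265 lies between sgf73, which encodes a subunit of the SAGA coactivator, and mrpl17, which encodes a mitochondrial ribosomal protein, both on the opposite strand. It was at 12.9, 14.9 and 15.8 CPM in seb1-G476S and 4.25, 5.98 and 7.97 CPM in wild type. Every mutant library was above every wild-type one, with a log2 fold change of 1.26 (SE 0.207, edgeR adjusted p = 0.000878). Both coding neighbours fell, sgf73 with a log2 fold change of -0.68 and mrpl17 with -0.57.

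SPNCRNA.1336, between adh8 and sbp1, reached a higher level than most of the rises. It was at 20.3, 25.1 and 25.5 CPM in seb1-G476S and 8.24, 13.9 and 10.7 CPM in wild type, again without overlap, with a log2 fold change of 1.11 (SE 0.185, edgeR adjusted p = 0.000961). SPNCRNA.1239, SPNCRNA.1458, SPNCRNA.963 and SPNCRNA.757 rose by similar amounts, with log2 fold changes of 1.15, 1.15, 1.10 and 1.06.

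Other rises were less even. SPNCRNA.1342 was at 0.432, 1.30 and 1.77 CPM in seb1-G476S and 0.429, 0.389 and 0.223 CPM in wild type. The lowest mutant library thus stood barely above the highest wild-type one. The log2 fold change was 1.73 (SE 0.502, edgeR adjusted p = 0.0153), and without seb1-G476S replicate 3 it was no longer called (edgeR adjusted p = 0.0629). SPNCRNA.1444 was at 1.08, 1.15 and 1.16 CPM in seb1-G476S and 0.129, 0.427 and 0.668 CPM in wild type, without overlap, with a log2 fold change of 1.47 (SE 0.391, edgeR adjusted p = 0.0104). Below 1 CPM in both groups, and chosen after its values were seen, SPNCRNA.1207 was at 0.604, 0.965 and 0.905 CPM in seb1-G476S and 0, 0.155 and 0.134 CPM in wild type. Its fitted log2 fold change of 3.02 rests on few counts.

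**Figure D2:**
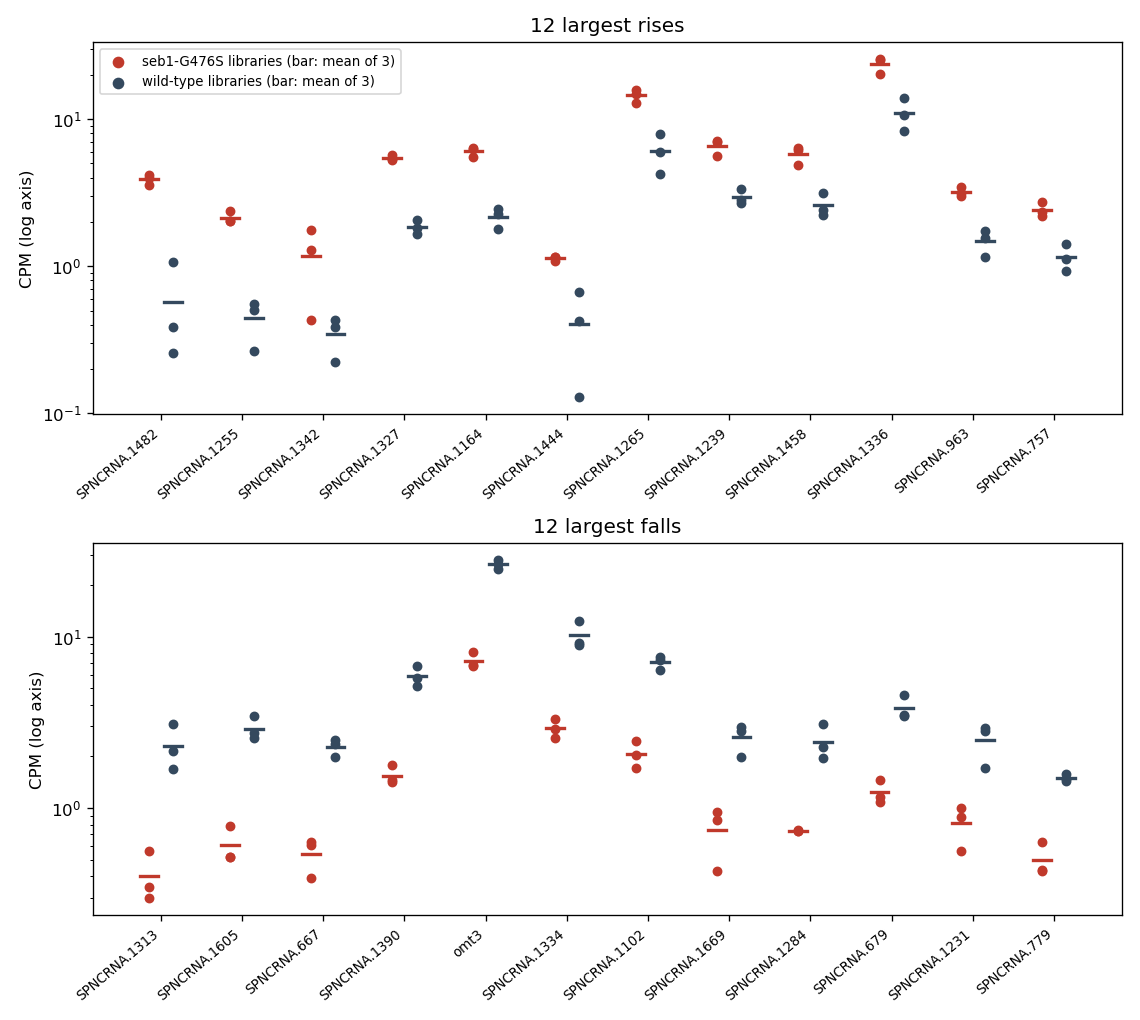
Level in each library (CPM, log axis) of the 12 largest rises and the 12 largest falls among called intergenic RNAs that did not overlap between groups and reached 1 CPM in the higher one; red points are seb1-G476S, dark points wild type, and bars are means of 3. The closest pair of groups is that of SPNCRNA.1342, at 0.432 CPM in the lowest seb1-G476S library and 0.429 CPM in the highest wild-type library.

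Among the 12 largest falls, omt3 had the highest level and the smallest error. Its RNA is described in the reference annotation as a meiosis-specific lncRNA of the Smp foci, which are sites where meiotic chromosomes pair. It was at 8.16, 6.76 and 6.81 CPM in seb1-G476S and 27.9, 26.4 and 24.8 CPM in wild type. The mutant libraries lay far below all wild-type libraries, with a log2 fold change of -1.87 (SE 0.126, edgeR adjusted p = 6.25e-06), or 3.64-fold lower.

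The upstream neighbour of omt3 on the opposite strand is mei2, which encodes the RNA-binding protein that switches fission yeast cells into meiosis. Its mRNA was at 57.9, 57.5 and 52.1 CPM in seb1-G476S and 152, 130 and 119 CPM in wild type, a log2 fold change of -1.26 (SE 0.0930, edgeR adjusted p = 9.23e-06). A second intergenic RNA of the same gap and strand, SPNCRNA.993, was at 1.17, 0.891 and 1.03 CPM in seb1-G476S and 1.89, 3.30 and 2.05 CPM in wild type. All 3 features of this locus were therefore lower in every mutant library. The gene that follows on the RNAs' own strand, omt2, was not called at -0.13 (edgeR adjusted p = 0.490).

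The largest fall by the fixed limits was that of SPNCRNA.1313, between mug14 and abc3 on chromosome II. This RNA overlaps a coding gene on the opposite strand, and reads of that gene in its counts cannot be told apart with certainty. SPNCRNA.1313 was at 0.345, 0.297 and 0.560 CPM in seb1-G476S and 2.15, 3.07 and 1.69 CPM in wild type, without overlap between groups. The log2 fold change was -2.53 (SE 0.332, edgeR adjusted p = 0.000262). The mRNA of mug14, on the other strand upstream, also fell, with a log2 fold change of -0.84. Below this level, SPNCRNA.601, chosen after its values were seen, was at 0.216, 0.0742 and 0.172 CPM in seb1-G476S and 1.07, 0.894 and 0.935 CPM in wild type.

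SPNCRNA.1605 starts beside zfs1, the gene of a zinc-finger protein that promotes mRNA decay. It was at 0.518, 0.779 and 0.517 CPM in seb1-G476S and 2.57, 2.72 and 3.43 CPM in wild type, a clean separation with a log2 fold change of -2.24 (SE 0.243, edgeR adjusted p = 9.40e-05). Yet zfs1 itself was higher, at 225 ± 4.05 CPM in seb1-G476S and 179 ± 17.4 CPM in wild type. On the other strand of the same gap, SPNCRNA.1606 fell by less, with a log2 fold change of -0.43, and SPNCRNA.1604 was not called at 0.49.

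SPNCRNA.667 lies between spo20 and nab3, a gene for a predicted poly(A) binding protein. It was at 0.604, 0.631 and 0.388 CPM in seb1-G476S and 2.36, 1.98 and 2.49 CPM in wild type. The groups did not overlap, and the log2 fold change was -2.05 (SE 0.245, edgeR adjusted p = 0.000165). The spo20 mRNA rose by 0.54 on the log2 scale and nab3 was not called at -0.14.

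SPNCRNA.1390 lies between mfs3 and SPBC36.02c, both annotated as spermidine transporter genes and both on its own strand. It was at 1.77, 1.45 and 1.42 CPM in seb1-G476S and 5.75, 6.76 and 5.16 CPM in wild type. No library of either group came near the other, with a log2 fold change of -1.93 (SE 0.185, edgeR adjusted p = 4.79e-05). The mfs3 mRNA upstream was also lower, at 174 ± 13.8 CPM in seb1-G476S and 269 ± 3.41 CPM in wild type. SPBC36.02c downstream had a log2 fold change of -0.46 and was not called (edgeR adjusted p = 0.0601). On the opposite strand of the gap SPNCRNA.1389 fell too, with a log2 fold change of -0.56.

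SPNCRNA.1334 was at 3.32, 2.56 and 2.89 CPM in seb1-G476S and 8.88, 9.21 and 12.4 CPM in wild type, with a log2 fold change of -1.80 (SE 0.185, edgeR adjusted p = 7.04e-05). SPNCRNA.1102 was at 2.46, 1.71 and 2.02 CPM in seb1-G476S and 6.35, 7.58 and 7.30 CPM in wild type, with a log2 fold change of -1.78 (SE 0.180, edgeR adjusted p = 6.35e-05). In both RNAs every mutant library was below every wild-type library. SPNCRNA.1669, SPNCRNA.1284, SPNCRNA.679, SPNCRNA.1231 and SPNCRNA.779 had log2 fold changes of -1.78, -1.72, -1.63, -1.60 and -1.56. The gene after SPNCRNA.1669 on its own strand, mug147, rose to 16.9 ± 0.841 CPM in seb1-G476S, against 7.04 ± 2.44 CPM in wild type.

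Of the 67 falls, 61 had groups that did not overlap, and those of at least 2-fold with overlapping groups were SPNCRNA.1107 and SPNCRNA.1058. SPNCRNA.1107 was at 0.130, 0.223 and 0.431 CPM in seb1-G476S and 0.386, 1.09 and 0.623 CPM in wild type, with a log2 fold change of -1.43 (SE 0.502, edgeR adjusted p = 0.0342). SPNCRNA.1058 was at 0.561, 0.297 and 0.861 CPM in seb1-G476S and 0.858, 1.44 and 1.25 CPM in wild type, with a log2 fold change of -1.07 (SE 0.365, edgeR adjusted p = 0.0309). In each, 1 mutant library reached above the lowest wild-type library. Each call was lost in DESeq2, without seb1-G476S replicate 1, without seb1-G476S replicate 2 and without wild-type replicate 2, with adjusted p of up to 0.106 in DESeq2 and of up to 0.162 and 0.122 in edgeR.

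The intergenic RNA with the most counts was SPNCRNA.111 on chromosome II, described in the reference annotation as a cis-acting repressor of ste11, the gene of the master transcription factor of sexual differentiation. It was at 306, 318 and 332 CPM in seb1-G476S and 152, 182 and 212 CPM in wild type. It rose 1.75-fold without overlap, with a log2 fold change of 0.81 (SE 0.103, edgeR adjusted p = 0.000227). The ste11 mRNA, upstream on the opposite strand, was at 271, 302 and 300 CPM in seb1-G476S and 237, 232 and 273 CPM in wild type. Its groups overlapped, and the log2 fold change was 0.24 (edgeR adjusted p = 0.0219).

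SPNCRNA.1097, beside the nickel transporter gene nic1, was at 66.2, 62.1 and 61.4 CPM in seb1-G476S and 42.7, 44.4 and 43.1 CPM in wild type (log2 fold change 0.54, SE 0.0682). SPNCRNA.671, beside the kinase gene lkh1, was at 38.6, 36.1 and 37.5 CPM in seb1-G476S and 23.0, 23.4 and 25.7 CPM in wild type (log2 fold change 0.64, SE 0.0921). SPNCRNA.1571, beside gsf1, was at 39.2, 35.6 and 36.1 CPM in seb1-G476S and 17.7, 19.7 and 21.3 CPM in wild type (log2 fold change 0.92, SE 0.104). All 3 were called higher with tight replicates, at edgeR adjusted p of 0.000212, 0.000440 and 0.000121. The authors' deposited table called SPNCRNA.671 and SPNCRNA.1571 higher but did not call SPNCRNA.1097, which had a log2 fold change of 0.58 there.

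Of the 6 most abundant RNAs, the remaining pair were not called or changed little. SPNCRNA.1625 was at 51.3, 53.5 and 53.2 CPM in seb1-G476S and 41.4, 49.3 and 53.3 CPM in wild type, and was not called at 0.13 (SE 0.0949, edgeR adjusted p = 0.250). Its upstream neighbour on the opposite strand, the transcription factor gene mbx2, was 2.03-fold higher, at 38.3, 40.4 and 38.3 CPM in seb1-G476S and 17.2, 19.4 and 21.1 CPM in wild type. SPNCRNA.1624 lies in the same gap, on the strand of mbx2 and ahead of it. Described as heat shock specific in the reference annotation, it was at 5.35, 4.83 and 4.95 CPM in seb1-G476S and 4.98, 4.51 and 5.74 CPM in wild type, with overlapping groups.

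SPNCRNA.1443, between isp4 and the ribosomal protein gene rpl26, was at 44.1, 45.5 and 44.8 CPM in seb1-G476S and 53.1, 60.4 and 51.5 CPM in wild type. The groups lay close but apart, with a log2 fold change of -0.30 (SE 0.0804, edgeR adjusted p = 0.0114), which was not called without wild-type replicate 2 (edgeR adjusted p = 0.0556). On its own strand SPNCRNA.1442 fell as well, with a log2 fold change of -0.71, whereas SPNCRNA.1444 on the other strand of the gap was one of the 12 largest rises. Neither isp4 nor rpl26 was called, at -0.17 and 0.13.

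Of the phosphate-responsive genes that non-coding transcription represses, tgp1 had an intergenic RNA directly beside it, and pho1 and pho84 had none. That RNA, SPNCRNA.1343, is described in the reference annotation as the non-functional bidirectional partner of the lncRNA upstream of tgp1. It was at 9.80, 7.94 and 8.31 CPM in seb1-G476S and 18.6, 17.3 and 23.5 CPM in wild type. The mutant libraries were all below the wild-type ones, 2.28-fold on the fitted scale, with a log2 fold change of -1.19 (SE 0.153, edgeR adjusted p = 0.000239). Its opposite-strand neighbour tgp1, a glycerophosphodiester transporter gene, was at 104 ± 8.03 CPM in seb1-G476S and 11.2 ± 0.879 CPM in wild type, which is 9.23-fold higher. SPBC1271.08c, downstream on the RNA's own strand, was at 23.5 ± 3.65 CPM in seb1-G476S and 14.5 ± 0.702 CPM in wild type.

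**Figure D3:**
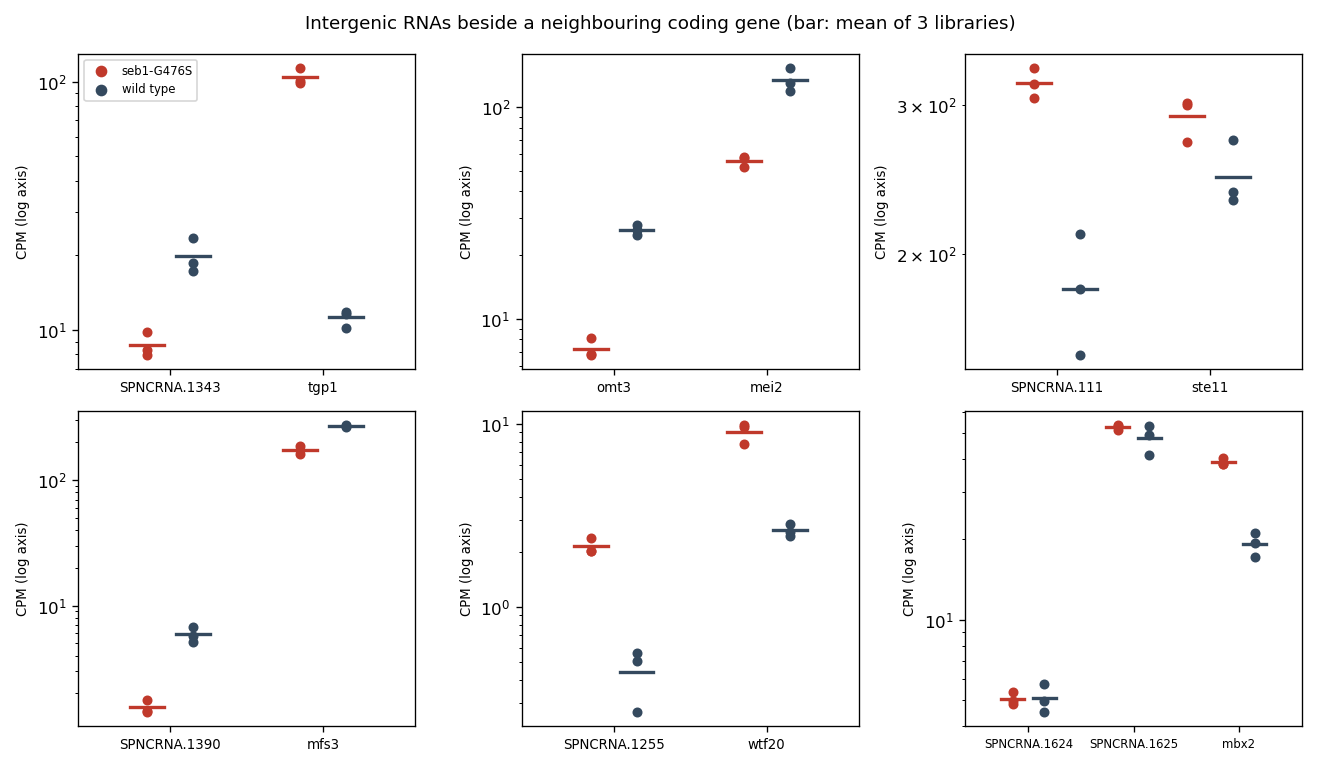
Level in each library (CPM, log axes, each panel with its own scale) of intergenic RNAs and coding genes beside them, seb1-G476S in red and wild type in dark points with bars at the mean of 3. SPNCRNA.1343 and tgp1 lie on opposite sides of equal, at 8.69 and 104 CPM in seb1-G476S against 19.8 and 11.2 CPM in wild type, while omt3 and mei2 are both lower in seb1-G476S.

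A few further members carry a specific description in the reference annotation, and they were chosen for that text. SPNCRNA.1483, a primary transcript of a snoRNA, was at 6.99, 8.31 and 9.56 CPM in seb1-G476S and 5.45, 5.95 and 5.25 CPM in wild type. Its log2 fold change of 0.58 was called (edgeR adjusted p = 0.0113) but not without seb1-G476S replicate 3 (edgeR adjusted p = 0.0621). SPNCRNA.1650, of the same description, was not called at -0.14, nor was SPNCRNA.1694, which lies near a long terminal repeat, at -0.05. SPNCRNA.1365, described as an unstable antisense RNA of cti6, overlaps a coding gene on the opposite strand and was not called at 0.36. SPNCRNA.1493, described as poly(A)-bearing, was not called at 0.73 (edgeR adjusted p = 0.137). SPNCRNA.1326, a regulatory lncRNA upstream of the fructose-1,6-bisphosphatase gene fbp1, had counts in only 2 of 6 libraries and was not tested.

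The position of each intergenic RNA among coding genes was taken from gene order and strand in the reference annotation, in which 313 of the 320 were found, 128 on chromosome I, 118 on II and 67 on III. An upstream coding gene on the opposite strand was the rule: 273 of the 313 had it. That arrangement is called divergent here. Order was set by the midpoints of the annotated spans, so it does not show where an RNA starts. Of these, 211 were tested, with 41 higher (19.4%) and 61 lower (28.9%), against 26.7% and 28.4% of all features. Among the 40 with an upstream gene on the same strand, 25 were tested, with 2 higher and 5 lower.

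The divergent RNAs were then split by their downstream gene. Where the downstream gene also lay on the opposite strand, so that it ran towards the RNA, 25 rose and 25 fell of 96 tested, 13 and 11 of them at least 2-fold, and the median log2 fold change was 0.03. These shares of called RNAs were near those of all features, 26.7% higher and 28.4% lower. Where the downstream gene lay on the RNA's own strand, 16 rose and 36 fell of 115 tested, 3 and 19 of them at least 2-fold, and the median was -0.15; 13.9% were thus called higher and 31.3% lower. Leaving out seb1-G476S replicate 2 took the falls of the first arrangement to 15, and leaving out seb1-G476S replicate 3 took the rises of the second to 10. With scaling by totals alone the counts were 19 rises and 29 falls in the first arrangement and 11 rises and 42 falls in the second. The 2 arrangements with an upstream gene on the same strand were small, with 1 rise and 3 falls of 11 tested and 1 rise and 2 falls of 13. No test of the difference between arrangements was made.

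**Figure D4:**
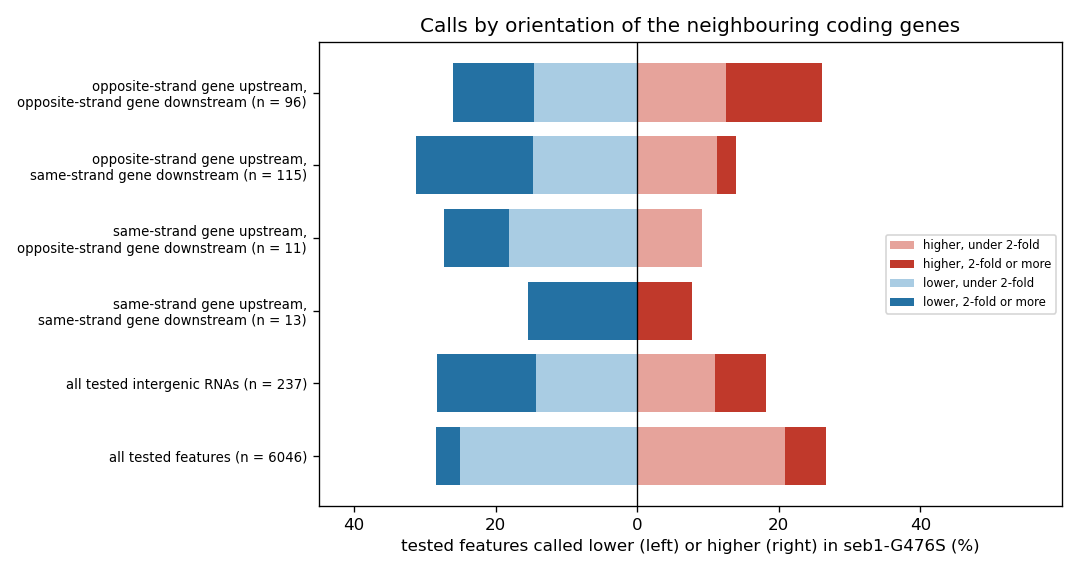
Share of tested features called lower (to the left) and higher (to the right) in seb1-G476S for the 4 arrangements of neighbouring coding genes, for all tested intergenic RNAs and for all tested features, with darker parts for changes of at least 2-fold. Rises number 25 of the 96 RNAs with opposite-strand genes on both sides and 16 of the 115 with a downstream gene on their own strand.

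Overlap with coding genes gave another split. In the reference annotation 121 of the RNAs overlapped a coding gene on the opposite strand and none on their own. Of the 105 tested, 26 rose (24.8%) and 25 fell (23.8%). Another 187 overlapped no coding gene, and 17 rose (13.1%) and 41 fell (31.5%) of the 130 tested. At least 2-fold, 8 of these rose (6.15%) and 23 fell (17.7%). Among all features 26.7% rose and 28.4% fell, 5.82% and 3.27% at least 2-fold. The rises of the first set and the falls of the second were thus near the background. Without seb1-G476S replicate 2 the falls were 16 and 27 in these sets, and with scaling by totals alone the rises and falls were 19 and 29 in the first and 12 and 48 in the second. No source used here says whether the authors counted by strand, so in the overlapping RNAs reads of the opposite-strand gene cannot be told apart with certainty. SPNCRNA.111, SPNCRNA.671 and SPNCRNA.1571 are of this kind, and so are 7 of the 12 largest rises and 4 of the 12 largest falls. The 7 rises are SPNCRNA.1342, SPNCRNA.1327, SPNCRNA.1265, SPNCRNA.1239, SPNCRNA.1458, SPNCRNA.1336 and SPNCRNA.757. The 4 falls are SPNCRNA.1313, SPNCRNA.1102, SPNCRNA.1284 and SPNCRNA.1231. SPNCRNA.1482, SPNCRNA.1255, SPNCRNA.1164, SPNCRNA.1605, SPNCRNA.1390, SPNCRNA.1343 and omt3 overlapped no coding gene.

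The largest changes are part of the calls already counted by arrangement, so their positions add no separate support. Of the 12 largest rises, 11 had a divergent upstream gene and 9 a downstream gene on the opposite strand. Of the 12 largest falls, 10 had a divergent upstream gene, and 8 a downstream gene on their own strand. Among all 237 tested RNAs, 211 had a divergent upstream gene. The downstream gene lay on the opposite strand for 107 of the 237 and on the RNA's own strand for 128. By chromosome, I had 14 rises (14.1%) and 28 falls (28.3%) of 99 tested. Chromosome II had 16 (18.6%) and 26 (30.2%) of 86, and III had 13 (25.5%) and 12 (23.5%) of 51. Of all features 26.7% rose and 28.4% fell. Without seb1-G476S replicate 2 the falls were 18 on I and 17 on II, and without seb1-G476S replicate 1 they were 7 on III. For 27 RNAs part of the span was shared with another counted feature on the same strand, where counting can lose or split reads. Of the 16 tested, 4 were called higher (25%, near the 26.7% of all features) and 0 lower (against 28.4%).

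The changes of coding neighbours were close to uncorrelated with those of the intergenic RNAs for 3 of 4 kinds of neighbour. Over 208 pairs of a tested RNA and its tested upstream gene on the opposite strand, Pearson's r of the log2 fold changes was 0.041 and Spearman's rho 0.052. Of all 208 such genes, 83 rose (39.9%) and 45 fell (21.6%), against 24.3% and 31.5% of all tested coding genes. Beside the RNAs that rose, 17 of 39 such genes rose and 9 fell, and beside the RNAs that fell, 18 of 61 rose and 15 fell; shares in the first set, 43.6% and 23.1%, were near those of all 208, and in the second they were 29.5% and 24.6%. For 122 pairs with a downstream gene on the same strand, r was 0.11 and rho 0.11. Of all 122 genes, 33 rose (27.0%) and 24 fell (19.7%). Here 4 of 16 genes after a rising RNA rose and 2 fell, and 9 of 37 genes after a falling RNA rose and 6 fell. For 104 pairs with a downstream gene on the opposite strand, r was 0.054 and rho -0.016. For 22 pairs with an upstream gene on the same strand, r was 0.31 and rho 0.30. These coefficients are descriptions over pairs from the same 6 libraries, and genes that flank more than 1 RNA enter more than once.

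**Figure D5:**
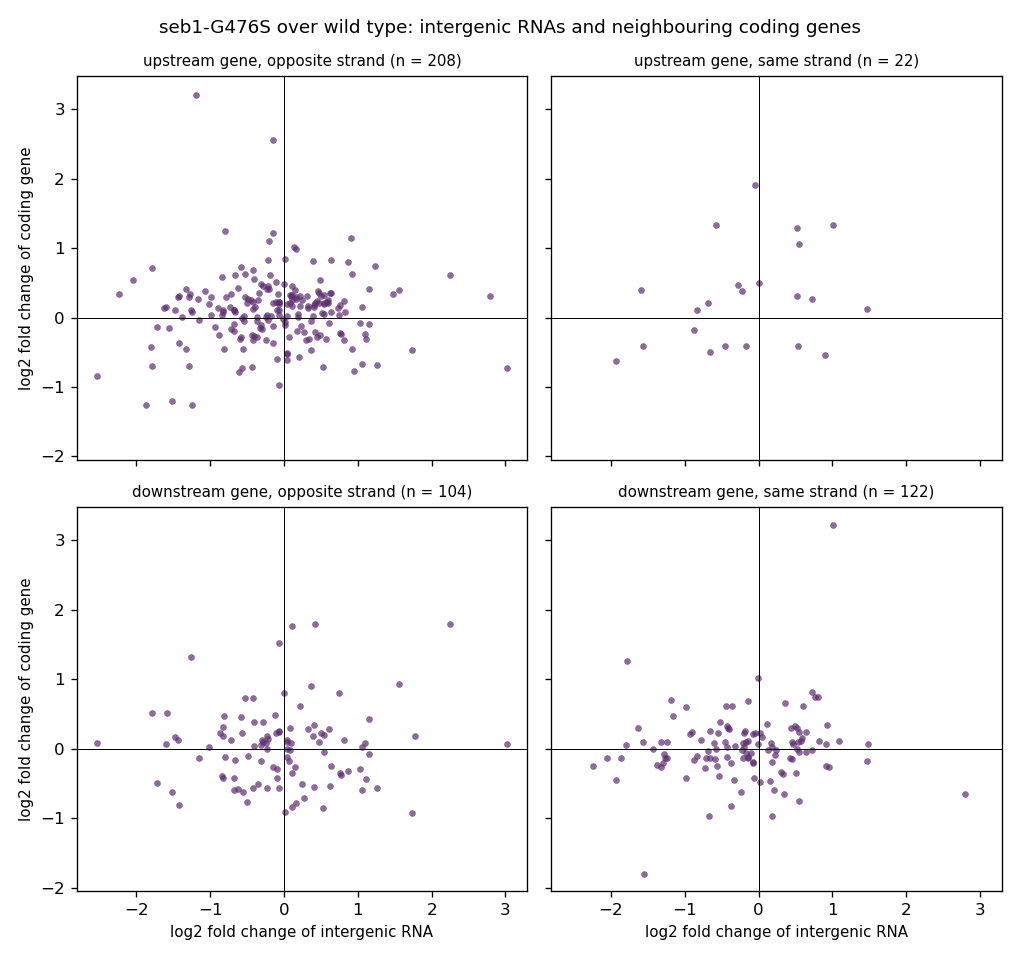
Log2 fold change, seb1-G476S over wild type, of a coding gene against that of the intergenic RNA beside it, in 4 panels by side and strand (208, 22, 104 and 122 pairs). Points scatter around both zero lines in all 4 panels, with Pearson's r between 0.041 and 0.31, and tgp1 is the highest point of the first panel at 3.21.

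Some RNAs share a gap between the same coding genes, and the calls of such pairs are given as a description. Of all tested intergenic RNAs 46.4% were called, so some pairs would be called in both members without any link. Whether the pairs depart from that was not tested. There were 28 gaps with more than 1 such RNA, holding 68 in all. Among 17 tested pairs on the same strand, 3 pairs were called in both members, all lower: omt3 with SPNCRNA.993, SPNCRNA.767 with SPNCRNA.768, and SPNCRNA.1442 with SPNCRNA.1443. In 8 further pairs only 1 member was called. Among 28 tested pairs on opposite strands, 5 were called in both members, 3 of them lower together and 2 in opposite directions. Both pairs of the last kind were those of SPNCRNA.1444 with SPNCRNA.1442 and SPNCRNA.1443. In the gap between pcs2 and hsr1, which holds SPNCRNA.777 to SPNCRNA.784, SPNCRNA.779 and SPNCRNA.783 were lower, at -1.56 and -0.67. That gap alone supplies a large part of the tested pairs on the same strand and on opposite strands. Each tested RNA there enters several pairs, so the pairs are not independent.

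Genes of the machinery that ends and degrades non-coding transcripts were lower more often than higher. Of 38 factors of 3'-end formation, termination and nuclear decay, all tested, 6 rose (15.8%, against 26.7% of all features and 24.3% of coding genes) and 23 fell (60.5%, against 28.4% and 31.5%), and the median was -0.41 on the log2 scale. With scaling by totals alone 3 rose and 27 fell. The rises included seb1 itself at 1.57 (SE 0.0769, edgeR adjusted p = 7.33e-07), then pcf11, which encodes a cleavage and termination factor, at 0.33, mmi1, which encodes the RNA-binding protein that marks meiotic transcripts for decay, at 0.33, and the phosphatase gene dis2 at 0.30. That of pcf11 was not called with scaling by totals alone. The falls were led by mpp6, an exosome cofactor gene, at -1.31, ssu72, a polymerase phosphatase gene, at -1.04, nrl1, which acts in splicing and RNA decay, at -1.03, and rrp4, a core exosome gene, at -0.97. Their mRNA levels in seb1-G476S and wild type were 3.46 and 8.58 CPM for mpp6, 4.88 and 10.1 CPM for ssu72, 9.18 and 18.8 CPM for nrl1, and 20.5 and 40.1 CPM for rrp4. The part of these mRNA levels in the intergenic RNAs was not tested.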

How the data were processed

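The authors deposited raw counts per annotated feature for 6 libraries, per the file headers. They also deposited their own comparison with log2 fold changes, a test statistic (score), p-values and adjusted p-values, and mean levels as a signal of counts divided by size factors, per the file headers. Per the submitters' processing notes, the build was ASM294v2 and the tools named are DESeq2, HTSeq 0.10.0, SAMtools and HISAT2 2.1.0. Annotation release and strand option: not given in the sources used here. An identifier on 2 of 6987 rows was summed. Groups follow the sample titles and strains.

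Counts were tested with edgeR 4.0.16 (R 4.3.3), quasi-likelihood, two-sided, TMM scaling, filterByExpr with a minimum count of 10, and Benjamini-Hochberg adjustment over 6046 features. The fit had 4 residual degrees of freedom. A call is an adjusted p under 0.05, SE is the size of the log2 fold change divided by the root of the F statistic, and CPM uses TMM library sizes. The procedure was tested on simulated data in which far fewer features changed than were called here. That check therefore does not cover so widespread a change. A count of 0 allows up to 3 counts, or 0.111 to 0.134 CPM, which covers counting error only. Between libraries of a group, chi-square per degree of freedom was at least 3.68, so none was a duplicate. Alternatives were RLE size factors, library totals alone, no filter, DESeq2 1.42.0, a replicate block, and leaving out each library.

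Neighbours, strand and descriptions came from the RefSeq annotation of ASM294v3, matched by identifier. This differs from the files' build, so no coordinates or sequences are given.

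The members and lists were chosen with earlier results of these data known. RNAs were named as the 12 largest called rises and 12 largest falls that did not overlap between groups and reached 1 CPM in the higher one, the 6 with the most counts, those with a common name, those directly beside pho1, pho84 or tgp1, and those 2-fold or more with overlapping groups. Opposite-strand neighbours, RNAs of a shared gap and RNAs with their own reference description were added after their values were seen.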

Additional observations from a re-analysis of the deposited data

How the results depend on the processing

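Leaving out each library in turn gave 33 to 51 rises and 43 to 76 falls, the lowest number of falls being 43 without seb1-G476S replicate 2, and 15 to 18 rises and 30 to 40 falls of at least 2-fold. The median log2 fold change ran over these from -0.153 to -0.0639. It was -0.223 with scaling by library totals alone and -0.0326 with no filter on low counts. Scaling by totals alone left 11 rises of at least 2-fold. Of the 110 calls, 110 were shared with RLE size factors, 109 with no filter, 98 with totals alone and 80 with DESeq2, which called 31 higher and 49 lower. For the named genes, 454 of 473 alternatives kept direction and call, 11 lost a call, 2 gained one and 6 changed sign. The sign changes were in RNAs that were not called. Leaving out each library gave -0.0881 to 0.0851 for SPNCRNA.1624, -0.365 to 0.0955 for SPNCRNA.1650 and -0.18 to 0.0264 for SPNCRNA.1694. The gains were SPNCRNA.1625 without wild-type replicate 3 (edgeR adjusted p = 0.0412) and SPNCRNA.1493 without seb1-G476S replicate 1 (edgeR adjusted p = 0.0318). The cause was not tested.

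The main fit did not pair libraries by replicate number. The deviations of same-numbered libraries correlated at 0.357, 0.0585 and 0.263, and those of differently numbered ones at -0.301 to 0.0658. Only seb1-G476S replicate 2 correlated better with another number, at 0.0658 with wild-type replicate 3. An effect shared by same-numbered libraries may thus be present, and it was not tested. A fit with the number as a replicate block called 50 higher and 74 lower, with 110 calls shared. Over all features it called 3906, against 3328 in the main fit. The planned motif search was not run, since no promoter sequences of the files' build were used here. The low-count filter removed 83 RNAs, and without it 305 were tested at the same depth.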
